A study of Rattus norvegicus with 2 samples.

Results

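Glutamate and amino acid handling was examined through 10 genes in the glia of rat dorsal root ganglia (DRGs), with the endothelium of the same ganglia set beside them. The genes were taken by symbol from a list, Slc1a2, Slc1a3, Glul, Slc7a11, Slc38a1, Slc38a2, Slc38a3, Slc7a5, Slc3a2 and Phgdh, and all 10 were found among the 30017 symbols of the series. The list names symbols only, but it was chosen with earlier results of these data known. Messenger RNA of single cells was counted as unique molecular identifiers (UMIs, each standing for 1 captured molecule) in 1 control library and 1 library from rats with diabetic peripheral neuropathy (DPN). Each library pooled bilateral L3-6 DRGs of 5 male SD rats. The DPN rats had received a single intraperitoneal dose of 65 mg/kg of streptozotocin, a toxin of insulin-producing cells, and those that became diabetic were taken 8 weeks later. The control rats had received the citrate buffer alone, and rats of both groups were 8 weeks old at purchase. With 1 pool per condition, differences between rats, between preparations and between conditions cannot be told apart, so no test between conditions was made.

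Glia take up glutamate that neurons release, convert it to glutamine and hand glutamine back, which neurons use to make glutamate again. Satellite glial cells (SGCs) wrap the cell bodies of sensory neurons, and Schwann cells (SCs) wrap their axons with or without myelin. Slc1a3 and Slc1a2 encode the glial glutamate transporters GLAST and GLT-1, and Glul encodes glutamine synthetase. Slc38a1, Slc38a2 and Slc38a3 carry glutamine and other neutral amino acids across the membrane with sodium. Slc7a11 encodes the cystine-glutamate exchanger xCT, which imports cystine for glutathione and exports glutamate, and Slc7a5 encodes LAT1, a carrier of large neutral amino acids such as leucine. Both work as pairs with the heavy chain that Slc3a2 encodes. Phgdh encodes the first enzyme that makes serine from a glycolytic intermediate.

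The set of RefSeq starts used (assembly GRCr8) covered 9 of the 10 genes, in 14 entries. The 250 bases before the start are shown for the gene that was higher in DPN in the 3 glial populations (Slc1a3), for the 2 genes that were lower in myelinating cells (Slc3a2 and Phgdh), and for Slc38a2, which holds a searched motif. Of several starts of a gene the most upstream is shown, and capitals mark the motif.
Slc1a3 (chr2:59557809-59558058, minus strand): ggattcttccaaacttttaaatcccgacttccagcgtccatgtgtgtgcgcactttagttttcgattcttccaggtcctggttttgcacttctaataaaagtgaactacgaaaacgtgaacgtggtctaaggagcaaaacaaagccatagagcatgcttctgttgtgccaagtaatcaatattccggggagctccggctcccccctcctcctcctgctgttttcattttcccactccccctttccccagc
Slc3a2 (chr1:215048065-215048314, minus strand): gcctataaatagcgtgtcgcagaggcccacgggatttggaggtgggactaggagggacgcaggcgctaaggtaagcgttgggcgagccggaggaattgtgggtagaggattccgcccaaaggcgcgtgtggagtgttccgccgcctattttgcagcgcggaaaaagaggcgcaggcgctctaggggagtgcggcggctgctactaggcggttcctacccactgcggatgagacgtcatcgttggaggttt
Phgdh (chr2:188624790-188625039, minus strand): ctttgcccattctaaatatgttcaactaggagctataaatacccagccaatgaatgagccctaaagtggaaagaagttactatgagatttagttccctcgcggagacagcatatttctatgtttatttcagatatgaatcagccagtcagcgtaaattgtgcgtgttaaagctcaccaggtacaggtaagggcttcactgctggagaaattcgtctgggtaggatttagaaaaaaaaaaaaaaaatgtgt
Slc38a2 (chr7:129742620-129742869, minus strand): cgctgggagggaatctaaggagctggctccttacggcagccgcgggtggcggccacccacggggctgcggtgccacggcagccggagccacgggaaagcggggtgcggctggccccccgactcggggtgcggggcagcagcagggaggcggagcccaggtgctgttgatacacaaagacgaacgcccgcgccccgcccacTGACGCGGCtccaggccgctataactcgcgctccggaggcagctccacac
Both strands of the 250 bases were searched for TGATGNAA, the core of the element bound by C/EBP-ATF factors in the amino acid response, and for TGACNNNGC, the core of the antioxidant response element. TGATGNAA occurred in 3.4% of 33469 rat promoters and, among the 9 genes, in Slc38a1, as TGATGCAA starting 142 bases before the start used. The window before that start (129681402 to 129681651 on chromosome 7) lies inside the RefSeq span of Slc38a1, which reaches 129681727 on the upstream side. TGACNNNGC occurred in 10.1% of promoters. It was present in Slc38a2, as TGACGCGGC starting 50 bases before the start, and before a downstream start of Slc3a2 on the opposite strand. The most upstream windows of Slc1a3, Slc3a2 and Phgdh held neither motif.

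The control library held 121101966 UMIs in 11011 barcodes and the DPN library 115409375 in 13168. Barcodes with at least 1000 UMIs and under 20% of UMIs from symbols beginning with Mt- were kept, which left 9798 and 11013 cells with medians of 9928 and 6446 UMIs. The libraries shared 38 barcodes, 31 of them among the kept cells. Populations were taken by marker genes per 10000 UMIs of a cell. Satellite glia had at least 12 of Fabp7 and Tyrp1 (4135 control and 3012 DPN cells), and myelinating cells at least 5 of Prx, Mag and Cldn19 (347 and 481). Other glia had at least 5 of S100b and met neither of these limits (2856 and 3874), and endothelium had at least 10 of Cldn5, Flt1 and Cdh5 (802 and 1213). A cell that met several limits was counted in each, as 94 control and 153 DPN cells did. The names follow marker levels that the limits did not use. The Schwann cell transcription factor gene Pou3f1 stood at 979 CPM (counts per 1000000 UMIs of the population) in control myelinating cells against 19.8 CPM in satellite glia, the lipid carrier gene Apoe at 83271 CPM in satellite glia against 11093 CPM in endothelium, and the endothelial gene Emcn at 953 CPM in endothelium against 5.13 CPM in satellite glia. Other glia carried Apoe at 36066 CPM and both satellite limit genes, and are therefore called by their rule rather than as SCs.

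Within each library the 10 genes fell into different patterns over the cell populations. UMIs were summed over the cells of a population and given as CPM, with exact Poisson 95% intervals that cover counting error only. A gene was counted as higher in one population if its level was at least 1.5 times that of the other in both libraries, with at least 100 UMIs over the pair in each. Slc1a3, Slc7a11 and Phgdh were higher in satellite glia than in other glia, than in myelinating cells and than in endothelium. These 3 of 10 genes compare with 3.72%, 14.9% and 19.1% of all genes tested in the same 3 comparisons. No gene of the 10 was lower in satellite glia than in other glia (9.23% of all genes were), Slc38a1 and Slc7a5 were lower than in myelinating cells (17.2%), and Glul, Slc38a2, Slc7a5 and Slc3a2 were lower than in endothelium (32.0%). Myelinating cells exceeded other glia in Slc7a5 (1 of 10, against 9.54% of all genes) and were exceeded by them in Slc1a3 and Phgdh (14.9%). Other glia exceeded endothelium in 3 of 10 (19.3%) and endothelium exceeded other glia in 4 of 10 (24.1%). Myelinating cells exceeded endothelium in 2 of 10 (15.5%) and endothelium exceeded myelinating cells in 3 of 10 (28.6%). The shares of all genes cover only genes with enough UMIs, whereas the 10 include genes with too few. Slc38a1 was left out of the last comparison and of that between myelinating cells and other glia for this reason. Its level in myelinating cells was 26.3-fold that of other glia in the control and 20.3-fold in DPN, and 75.8-fold and 24.5-fold that of endothelium.

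**Figure D1:**
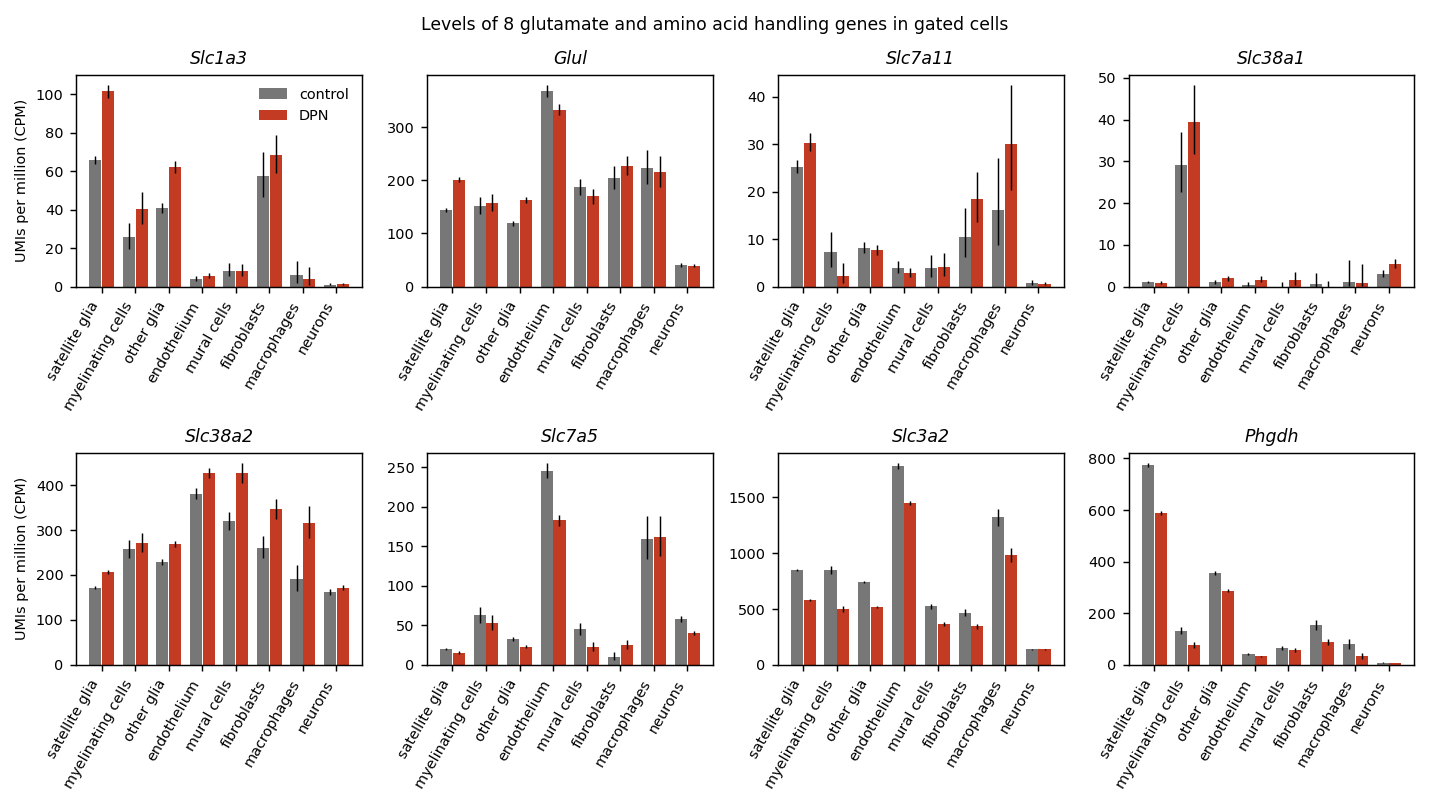
Levels (CPM, linear axis from 0) of 8 genes in 8 marker-defined populations of the control (grey) and DPN (red) libraries, with exact Poisson 95% intervals as lines. The bars of Slc1a3 and Phgdh stand highest in satellite glia, those of Slc38a1 in myelinating cells, and those of Slc7a5 and Slc3a2 in endothelium. Slc1a2 and Slc38a3 had too few UMIs to be drawn.

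Of the 2 glial glutamate transporter genes, Slc1a3 was readily detected. It stood at 65.9 CPM (63.9 to 68.0) in satellite glia of the control library and 101 CPM (98.1 to 105) in DPN. In other glia it reached 40.6 CPM (38.03 to 43.3) and 62.1 CPM (59.0 to 65.3), and in myelinating cells 25.8 CPM (19.7 to 33.1) and 40.3 CPM (32.5 to 49.3). The order satellite glia, other glia, myelinating cells held in both libraries, with intervals that did not overlap. The study itself uses Slc1a3 as a marker of SGCs, so its place in this order is not independent of the naming of these cells. Satellite glia exceeded other glia by 1.62-fold (1.51 to 1.75) in the control and 1.63-fold (1.54 to 1.74) in DPN, and endothelium by 17.1-fold and 18.7-fold.

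Endothelium carried 5.84% of the satellite glia level of Slc1a3 in the control and 5.33% in DPN, beside the 4.35% and 3.83% of Fabp7 and the 5.03% and 4.51% of Tyrp1, the genes that define satellite glia here. In the control 24 endothelial cells also met the satellite limit and 53 that of other glia, and in DPN 30 and 105. Whether the low share in endothelium came from such cells, from free RNA in the droplets or from the endothelium was not tested. In fibroblasts, taken by Dcn, Lum and Pdgfra, Slc1a3 stood at 87.0% (70.6 to 106) of the satellite glia level in the control and 67.5% (58.0 to 78.2) in DPN, where Fabp7 stood at 10.9% and 6.00%. These values came from 99 and 190 UMIs.

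Slc1a2 was nearly undetected. Over all kept cells it had 2 UMIs in the control library and 3 in DPN, of which satellite glia held 1 and 0. No UMI of Slc1a2 was found in myelinating cells, other glia or endothelium of either library. The upper limit of the Poisson interval in DPN satellite glia was 0.109 CPM.

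Glul differed little among the glia and was highest in endothelium. It stood at 144 CPM (141 to 147) in satellite glia, 152 CPM (137 to 168) in myelinating cells and 119 CPM (115 to 124) in other glia of the control library. The first 2 intervals overlapped. In DPN the values were 201 CPM (197 to 206), 158 CPM (142 to 175) and 163 CPM (158 to 168), so that satellite glia were highest of the glia in DPN only. Endothelium reached 368 CPM (357 to 380) in the control and 333 CPM (323 to 343) in DPN, above each glial population in both libraries. Glul thus had a lower level in satellite glia than in endothelium, by a ratio of 0.391 in the control and 0.605 in DPN.

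Among the glia the cystine-glutamate exchanger gene Slc7a11 was highest in satellite glia. It stood at 25.3 CPM (24.0 to 26.6) there in the control library and 30.4 CPM (28.5 to 32.3) in DPN, against 8.20 CPM and 7.70 CPM in other glia. Satellite glia exceeded other glia by 3.09-fold (2.65 to 3.62) and 3.95-fold (3.38 to 4.63). Myelinating cells held 17 and 5 UMIs of it and endothelium 41 and 38. Macrophages, taken by Csf1r, Cd68 and C1qb, carried 16.1 CPM (8.82 to 27.1) and 30.01 CPM (20.4 to 42.6), intervals that overlapped those of satellite glia in both libraries.

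Slc7a11 was unevenly spread over the satellite glia. A UMI of it was found in 20.3% of control and 15.4% of DPN satellite glia, whereas 29.4% and 28.3% were expected if every cell had carried the same level at its own depth. The 1% of cells with most UMIs of Slc7a11 held 17.1% and 22.8% of them, with up to 14 UMIs in a cell. Slc1a3 was closer to an even spread, with 54.2% and 60.2% of cells against 58.5% and 65.2% expected. With every cell thinned to 1000 UMIs, Slc7a11 was found in 2.54% (exact binomial 95% interval 2.08 to 3.07) of control and 2.06% (1.58 to 2.63) of DPN satellite glia, against 0.374% and 0.330% of endothelial cells.

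The heavy chain gene Slc3a2 was broadly present. In the control library satellite glia and myelinating cells carried the same level within their intervals, 850 CPM (843 to 858) and 846 CPM (809 to 884), and other glia 741 CPM (730 to 752). Endothelium stood above these at 1782 CPM (1757 to 1808). In DPN the levels were 580, 499, 520 and 1448 CPM in the same order of populations. The light chain gene Slc7a5 followed another order, with 20.5 CPM in satellite glia, 33.1 CPM in other glia, 62.6 CPM in myelinating cells and 246 CPM in endothelium of the control. The same order held in DPN, at 15.6, 22.9, 53.3 and 183 CPM. Satellite glia had the lowest Slc7a5 of the 4 populations in both libraries, at 0.0834 and 0.0852 of the endothelial level.

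The glutamine carriers divided between populations. Slc38a1 was largely a gene of myelinating cells, with 29.2 CPM (22.7 to 36.9, 69 UMIs) in the control and 39.4 CPM (31.7 to 48.4, 91 UMIs) in DPN. Satellite glia held 0.998 CPM and 0.859 CPM of it, 0.0342 (0.0237 to 0.0492) and 0.0218 (0.0138 to 0.0335) of the level in myelinating cells. A UMI of Slc38a1 was found in 14.7% of control and 16.01% of DPN myelinating cells, against 0.499% and 1.73% of endothelial cells, whose median depth was above that of myelinating cells (10377 and 8891 UMIs against 4614 and 3655). Slc38a2 was found everywhere and was lowest among the glia in satellite glia, at 172 CPM (169 to 175) and 207 CPM (202 to 212). Other glia carried 229 and 269 CPM of it and myelinating cells 257 and 272 CPM, with overlapping intervals in DPN. Slc38a3 had 51 and 32 UMIs over all kept cells, 20 of them in endothelium of each library, and 8 and 2 in satellite glia, so that no level in glia could be compared.

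Phgdh had its highest level in satellite glia, where it was 775 CPM (768 to 782) in the control library and 588 CPM (580 to 597) in DPN. Other glia followed at 356 CPM (348 to 364) and 288 CPM (281 to 295), and myelinating cells at 133 CPM (118 to 148) and 75.8 CPM (64.96 to 87.9). Satellite glia exceeded other glia by 2.18-fold (2.13 to 2.23) and 2.04-fold (1.99 to 2.10), and myelinating cells by 5.84-fold and 7.76-fold. In endothelium Phgdh stood at 5.51% (5.01 to 6.05) and 5.62% (5.11 to 6.17) of the satellite glia level, in DPN above the shares of Fabp7 and Tyrp1. It was unevenly spread there, with a UMI in 19.3% of control endothelial cells against 37.5% expected from depth, and the 1% of cells with most UMIs of Phgdh held 32.4% of them. The source of Phgdh UMIs in endothelium was not tested. At 1000 UMIs a cell, 51.4% (49.9 to 53.0) of control and 42.5% (40.7 to 44.3) of DPN satellite glia had a UMI of Phgdh. Without thinning, 98.1% and 96.0% did.

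Between conditions, Slc1a3 was called higher in DPN in all 3 glial populations, and Slc3a2 and Phgdh were lower in myelinating cells. In myelinating cells the call of Slc1a3 was lost on thinning, where its ratio lay below 1 with an interval that held 1. Ratios of DPN over control carry the exact conditional binomial 95% interval. A gene with 100 or more UMIs over both libraries was called where it differed by 1.5-fold or more in either direction and its interval left out 1. In satellite glia 1 gene of the 10 was called higher and 0 lower, where 25.7% and 2.28% of the 10753 genes tested were. In other glia 1 was called higher and 0 lower (22.9% and 2.39% of all genes), in myelinating cells 1 higher and 2 lower (18.5% and 5.61%), and in endothelium 0 higher and 0 lower (18.7% and 4.58%). With at least 100 UMIs were 7 of the 10 in each glial population and 6 in endothelium. With 7 or 6 of the genes measured, the counts of higher genes are too small to be set apart from the background shares. The median log2 ratio of all genes was 0.19 in satellite glia, 0.16 in other glia, 0.05 in myelinating cells and 0.06 in endothelium, and scaling to that median changed the balance of all calls in satellite glia from 2759 higher and 245 lower to 1943 and 731. In other glia it changed from 2362 and 246 to 1684 and 653.

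**Figure D2:**
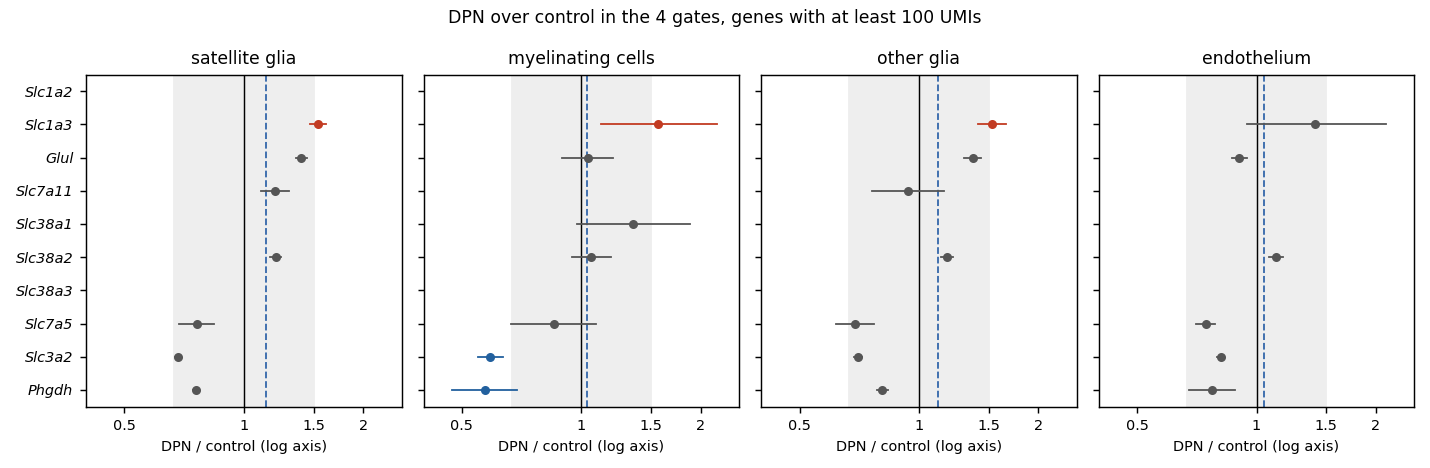
Ratio of the DPN to the control level (log axis) of each gene in the 4 populations, with exact 95% intervals for counting error. Red points were called higher and blue points lower, the grey band spans 1.5-fold in either direction, and the dashed line is the median of all genes (1.14 in satellite glia). Slc1a3 lies at the upper edge of the band in the 3 glial populations, and Slc3a2, Slc7a5 and Phgdh lie left of 1 in all 4.

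The ratio of Slc1a3 was 1.54 (1.47 to 1.61) in satellite glia, 1.53 (1.41 to 1.66) in other glia and 1.56 (1.12 to 2.19) in myelinating cells. The last rests on 61 and 93 UMIs and lost its call in 6 of 14 alternatives. With every cell thinned to 1000 UMIs it was 0.661 (0.264 to 1.64), an interval that held 1, with a UMI in only 11 control and 11 DPN cells. All 3 main ratios lie just past the 1.5-fold limit. On scaling to the median gene the ratios became 1.35, 1.37 and 1.51, above 1 in each and no longer called in satellite and other glia. At 1000 UMIs a cell a UMI of Slc1a3 was found in 6.17% (5.45 to 6.94) of control and 9.03% (8.03 to 10.1) of DPN satellite glia. In fibroblasts, where its level approached that of satellite glia, the ratio was 1.19 (0.931 to 1.54) and was not called. Endothelium had 1.41 (0.945 to 2.12) from 40 and 74 UMIs, also not called. In cells that met none of the 8 limits the ratio was 2.03 (1.47 to 2.84) from 55 and 132 UMIs and was called higher, so the higher values were not confined to the 3 glial populations.

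Glul had ratios above 1 in satellite and other glia that stayed below the limit. Its ratio was 1.40 (1.35 to 1.44) in satellite glia and 1.36 (1.30 to 1.43) in other glia, 1.04 (0.895 to 1.20) in myelinating cells and 0.904 (0.866 to 0.944) in endothelium. The intervals of the first 2 did not overlap those of the last 2. The gap to myelinating cells was not kept among cells of at least 10000 UMIs. Myelinating cells had 1.29 (1.01 to 1.66) there, an interval that held the 1.45 of satellite glia and the 1.42 of other glia. At 3000 to under 10000 UMIs their interval (0.792 to 1.22) overlapped that of satellite glia (1.13 to 1.36). That of other glia (1.34 to 1.54) lay above it. Endothelium stayed below 1 in both classes, at 0.934 and 0.787. Slc38a2 had ratios of 1.20 (1.17 to 1.24) in satellite glia, 1.18 (1.13 to 1.22) in other glia and 1.12 (1.07 to 1.16) in endothelium. Scaled to the median gene the first 2 became 1.06 and 1.05. Of the populations outside the 4, macrophages had a called value for Slc38a2, at 1.65 (1.37 to 2.01) from 166 and 327 UMIs. For Slc7a11 the ratio was 1.20 (1.11 to 1.30) in satellite glia and 0.938 (0.762 to 1.16) in other glia. Neither direction held with every cell thinned to 1000 UMIs, which gave 0.829 (0.603 to 1.13) and 2.36 (1.13 to 5.38), and scaling to the median gene gave 1.05 (0.973 to 1.14) in satellite glia.

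For Slc3a2 the ratio lay below 1, with its interval, in 7 of the 8 populations. It was 0.590 (0.548 to 0.634) in myelinating cells, where it was called lower, 0.683 (0.672 to 0.694) in satellite glia, just inside the limit, 0.702 (0.686 to 0.718) in other glia and 0.813 (0.796 to 0.829) in endothelium. The exception was the neurons, taken by Snap25, Nefl, Nefm and Uchl1, at 140.1 CPM in both libraries and a ratio with an interval of 0.945 to 1.06. Slc7a5, its light chain partner, had ratios of 0.760 (0.685 to 0.843) in satellite glia, 0.691 (0.618 to 0.772) in other glia, 0.744 (0.704 to 0.787) in endothelium and 0.851 (0.665 to 1.09) in myelinating cells. None of these was called, and in mural cells, taken by Acta2, Rgs5 and Myh11, Slc7a5 was called lower at 0.501 (0.374 to 0.666). It was 0.687 (0.624 to 0.756) in neurons and 1.02 (0.807 to 1.28) in macrophages. In fibroblasts it was 2.56 (1.49 to 4.64), from 17 and 70 UMIs, too few for a call. Scaled to the median gene, Slc3a2 was called lower in satellite glia (0.600) and other glia (0.628), and Slc7a5 in other glia (0.618).

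Phgdh had ratios of 0.759 (0.746 to 0.772) in satellite glia, 0.808 (0.782 to 0.834) in other glia and 0.571 (0.472 to 0.689) in myelinating cells, the last called lower from 314 and 175 UMIs. It was also called lower in fibroblasts (0.575) and macrophages (0.414). Markers of satellite glia moved with the value in myelinating cells. Of the 8 satellite glia markers 7 had ratios below 1 there and 5 were called lower, their summed level was 15062 CPM in the control and 8722 CPM in DPN, and Fabp7 stood at 232 and 73.2 CPM. In fibroblasts the satellite glia markers summed to 31841 CPM in the control and 19862 CPM in DPN, and in macrophages to 11919 and 8444 CPM. Of these sums the 6 markers that the limits did not use, Apoe among them, held 31521 and 19689 CPM in fibroblasts and 11778 and 8300 CPM in macrophages. Of the limit genes, Fabp7 stood at 10.9% and 6.00% of the satellite glia level in fibroblasts, but at 5.93% and 7.47% in macrophages. Tyrp1 stood at 11.2% and 7.67% in fibroblasts and at 3.74% and 3.89% in macrophages. The part of these markers in the lower Phgdh was not tested.

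Slc38a1 had a ratio of 1.35 (0.977 to 1.87) in myelinating cells, the population in which its level was highest, and was not called. The neurons carried 3.01 CPM (45 UMIs) and 5.43 CPM (116 UMIs), a ratio of 1.80 (1.27 to 2.61) that was called higher. The neuron populations differed in depth, with medians of 82932 UMIs in 183 control cells and 2997 in 492 DPN cells. Over all kept cells Slc38a1 had a ratio of 1.78 and Phgdh one of 0.572, further from 1 than within satellite glia. Satellite glia made up 42.2% of kept cells in the control and 27.3% in DPN, so that levels over all kept cells follow the mix of populations as well as the level within them.

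Markers of neurons differed between the libraries in each of the 4 populations. All 9 had ratios above 1 in satellite glia, myelinating cells and endothelium, and 7 of 9 in other glia. Their summed level was 257 CPM in control and 390 CPM in DPN satellite glia, 311 and 856 CPM in myelinating cells, 619 and 726 CPM in other glia, and 177 and 354 CPM in endothelium. The part of neuronal RNA in the ratios was not tested. The satellite glia markers summed to 88993 CPM in control and 74015 CPM in DPN satellite glia.

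Cells of the DPN library were shallower, and the ratios were therefore taken again among cells of like depth. In satellite glia of 3000 to under 10000 UMIs the ratio of Slc1a3 was 1.60 (1.39 to 1.84), and in those of at least 10000 UMIs 1.54 (1.47 to 1.62). Other glia gave 1.65 (1.47 to 1.86) and 1.58 (1.40 to 1.79). In the shallowest class, under 3000 UMIs, no difference of Slc1a3 was detectable. Other glia there had a ratio of 1.09 (0.672 to 1.82) from 25 and 57 UMIs in 329 and 700 cells, and satellite glia one of 0.621 (0.155 to 2.27) from 7 and 5 UMIs in 58 and 67 cells. The values of Slc3a2 were 0.725 and 0.692 in the 2 deeper classes of satellite glia, and those of Phgdh 0.860 and 0.766. Both genes thus lay below 1 in these 2 classes. In satellite glia under 3000 UMIs Slc3a2 had a ratio of 0.812 (0.578 to 1.14) and Phgdh one of 0.969 (0.598 to 1.58), with intervals that held 1.

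**Figure D3:**
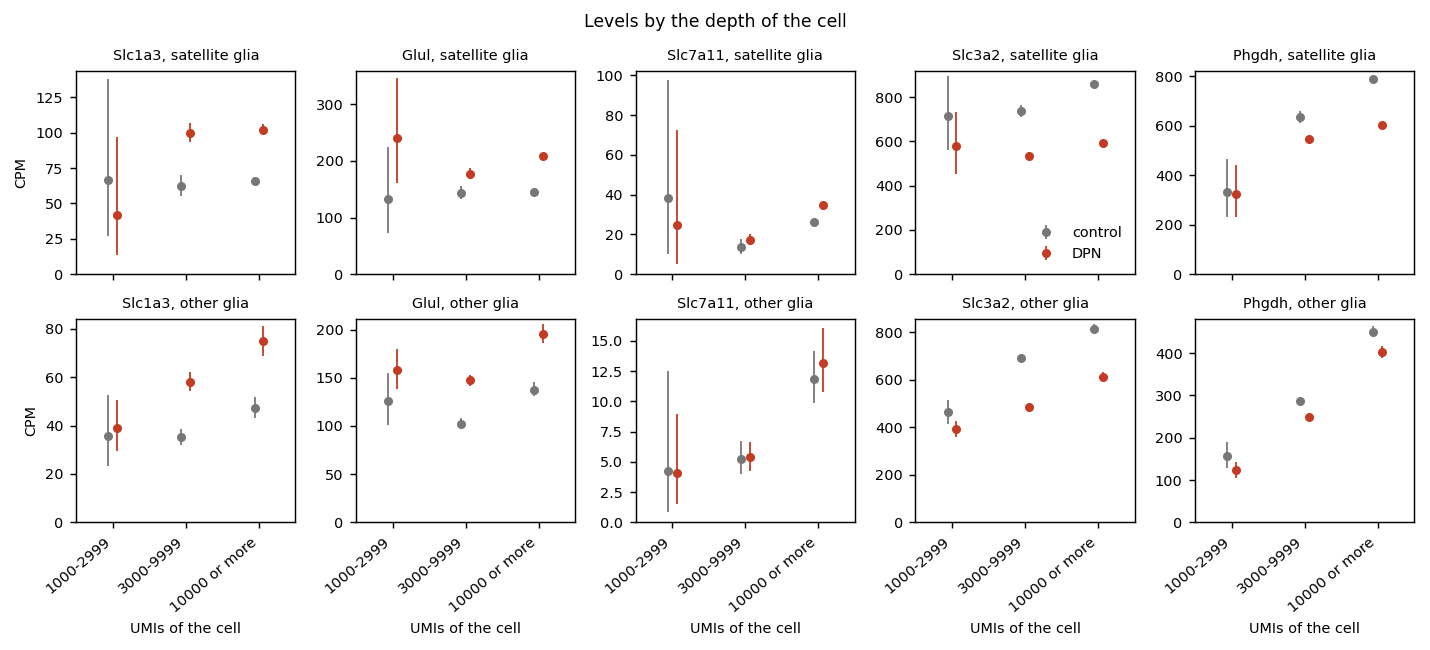
Levels (CPM, linear axis from 0) of 5 genes in satellite glia (top) and other glia (bottom) by the number of UMIs of the cell, in the control (grey) and DPN (red) libraries, with exact Poisson 95% intervals. Slc1a3 is higher and Slc3a2 lower in DPN in the 2 deeper classes of both populations. Phgdh of the control satellite glia climbs from 334 to 787 CPM from the shallowest to the deepest class.

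The level of Phgdh itself went with depth. In control satellite glia it was 334, 635 and 787 CPM in cells of under 3000, of 3000 to under 10000 and of at least 10000 UMIs, and in DPN 324, 546 and 603 CPM. Other glia followed the same order, with 157, 286 and 450 CPM in the control and 123, 248 and 402 CPM in DPN. Slc7a11 in satellite glia was 13.6 and 26.2 CPM in the 2 deeper classes of the control and 17.2 and 34.6 CPM in DPN. Slc1a3 in satellite glia was 66.8, 62.6 and 66.2 CPM in the 3 classes of the control and 41.5, 100.004 and 102 CPM in DPN, the lowest class resting on 7 and 5 UMIs. In other glia it was 35.7, 35.2 and 47.2 CPM in the control and 39.0, 58.2 and 74.7 CPM in DPN. What deep and shallow cells of a population share beside their depth was not tested.

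Related genes were taken from 7 lists of 183 genes, of which 164 had a symbol in the counts. These cover glutamate uptake, release and enzymes, other amino acid transporters, and serine and one-carbon enzymes. The rest cover the ATF4 response to amino acid shortage, glutathione, glutamate receptors and the sensing of amino acids by mTORC1. The calls are counted over genes with at least 100 UMIs and are read beside the background shares given above. In satellite glia 21 of 112 were called higher and 4 lower, and in other glia 16 of 110 higher and 4 lower. Of all genes 25.7% were called higher in satellite glia and 22.9% in other glia, and 2.28% and 2.39% lower. Higher calls were thus less frequent, and lower calls more frequent, among the related genes than among all genes in both populations. The lower calls, 4 in each, are too few to be set apart from the background shares.

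**Figure D4:**
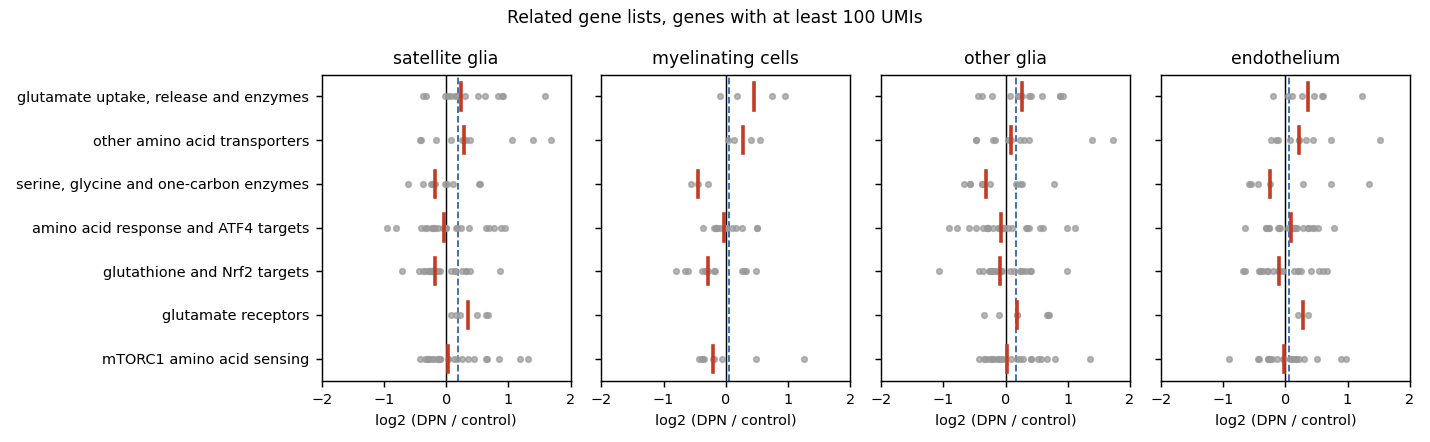
Log2 ratio of DPN over control of each related gene with at least 100 UMIs (grey points), by list and population. Red bars are list medians, the dashed line is the median of all genes and the solid line is 0. The serine and the glutathione list each have their median below 0 in all 4 populations. That of the serine list is -0.18 in satellite glia and -0.31 in other glia, and that of the glutathione list -0.18 and -0.09.

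In the list of glutamate uptake, release and enzymes, 5 of 14 genes were called higher in satellite glia and 0 lower. Their median log2 ratio was 0.24 against 0.19 for all genes. The mitochondrial aspartate-glutamate carrier Slc25a12 had a ratio of 1.87 (1.29 to 2.70) in satellite glia, and the alanine transaminase Gpt2 1.83 (1.35 to 2.501) in other glia. Slc17a6, the vesicular glutamate transporter of neurons, was called higher in satellite glia (3.01) and other glia (1.90) from 55 and 96 and from 61 and 127 UMIs, beside the neuron markers that were also higher there. Glutamate receptor genes gave 2 of 6 called higher in satellite glia and 3 of 7 in other glia. Gria4, an AMPA receptor subunit, had ratios of 1.60 (1.39 to 1.85) and 1.59 (1.38 to 1.85), and Grik1, a kainate receptor subunit, 1.55 and 1.63, while Gria2 was called in other glia at 1.61.

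Other amino acid transporters gave 3 of 11 called higher in satellite glia and 2 of 11 in other glia. Slc7a2, a carrier of arginine and lysine, rose from 9.01 to 23.8 CPM in satellite glia, a ratio of 2.64 (2.36 to 2.95), and from 3.64 to 9.52 CPM in other glia, a ratio of 2.62 (2.03 to 3.41). Slc38a10, of the same family as the glutamine carriers, had ratios of 3.21 (2.37 to 4.39) and 3.30 (2.06 to 5.48). The neutral amino acid carrier Slc6a15 was called in satellite glia at 2.07 (1.49 to 2.89).

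The serine, glycine and one-carbon enzymes were divided. In satellite glia 4 had ratios above 1 and 7 below, in other glia 4 and 6, and in endothelium 3 and 4, where 2 were called higher (Mthfd1l and Srr) and 0 lower. Their median log2 ratio was -0.18 in satellite glia, -0.31 in other glia, -0.44 in myelinating cells and -0.24 in endothelium, each below the median of all genes, with 11, 10, 3 and 7 genes measured. Shmt2, the mitochondrial enzyme that turns serine into glycine, was called lower in satellite glia, from 16.5 to 10.8 CPM (ratio 0.657, 0.581 to 0.742), and in other glia, from 17.7 to 11.2 CPM (0.632, 0.540 to 0.739). No other gene of the list was called lower in these populations, and Mthfd1l, of mitochondrial folate metabolism, was called higher in other glia at 1.71 (1.44 to 2.04). Psat1, the enzyme after Phgdh, was chosen after its values were seen and had ratios of 0.860 (0.799 to 0.925) and 0.669 (0.585 to 0.766), neither called.

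Genes of the ATF4 response gave 5 of 25 called higher and 2 lower in satellite glia, and 3 higher and 2 lower in other glia, with medians of -0.03 and -0.08. Trib3, a target that restrains ATF4, was called lower in both, at 0.518 (0.437 to 0.612) and 0.532 (0.418 to 0.675). Eif2ak3, which encodes the stress kinase PERK, had ratios of 1.93 (1.66 to 2.24) and 2.16 (1.73 to 2.70). Ddit4, an inhibitor of mTORC1, stood at 83.6 and 155 CPM in satellite glia, a ratio of 1.85 (1.78 to 1.93), and at 107 and 211 CPM in other glia, a ratio of 1.97 (1.88 to 2.07). Asns, also chosen after its values were seen, is the asparagine synthetase that ATF4 controls and was counted in the glutamate list. Its ratios were 0.986 (0.814 to 1.19) and 0.858 (0.638 to 1.15). The ATF4 list held calls in both directions, and its median lay below that of all genes in both populations.

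Of the glutathione and Nrf2 genes, 1 of 22 was called higher and 1 lower in satellite glia, and the same numbers in other glia. Ratios below 1 were had by 14 of them in satellite glia and 13 in other glia, with median log2 ratios of -0.18 and -0.09. The median was -0.28 in myelinating cells and -0.10 in endothelium. Glutathione reductase, Gsr, was higher in both, at 1.83 (1.498 to 2.23) and 1.98 (1.52 to 2.60). The lower genes were Ggt1, a glutathione-degrading enzyme, at 0.611 (0.398 to 0.918) in satellite glia, and Gpx3, a secreted glutathione peroxidase, at 0.475 (0.333 to 0.671) in other glia. Genes of amino acid sensing by mTORC1 gave 5 of 23 called higher in satellite glia and 3 of 22 in other glia, and 0 lower. Sesn3, a sestrin that restrains mTORC1, stood at 16.3 and 37.0 CPM in satellite glia, a ratio of 2.27 (2.09 to 2.48), and at 12.3 and 31.7 CPM in other glia, a ratio of 2.57 (2.24 to 2.96). Tsc1 (2.48) in satellite glia, Fnip2 (1.80 and 1.74) in both and Rragd (1.59) in other glia were the other genes named by the rule.

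The genes whose pattern over the populations was most like each of the 10 were found among 11281 genes, by the root mean square difference of centred log2(CPM + 1) over 16 pools, the 8 populations of the 2 libraries. The pools of a library share its preparation and its background RNA, and some share cells. Nearest to Slc1a3 were Megf10 (0.41), an engulfment receptor of glia, Lpar1 (0.48), a lysophosphatidic acid receptor, and Agmo (0.51). Phgdh had closer neighbours, Pdpn (0.31), Nkain4 (0.32) and Acsbg1 (0.32). Those of Slc7a11 were Cmklr1 (0.59), Nucb2 (0.63) and Fuca1 (0.63), and those of Slc38a1 included Nek1 (0.61) and Frmd3 (0.66).

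For Slc3a2 the nearest were Tfeb (0.39), the transcription factor of lysosome genes, Prkab1 (0.41) and Tcirg1 (0.44). For Slc7a5 they were Bcl2l1 (0.62), Tmsb4x (0.66) and Tbkbp1 (0.67). Glul was nearest to Slc30a7 (0.31) and Tor1aip1 (0.33), beside a gene with a clone name, and Slc38a2 to Ddx39b (0.17), Naa16 (0.18) and Hnrnpl (0.18). The small differences of Slc38a2 go with its small spread over the pools, an SD of 0.44 log2 units against 1.86 for Slc1a3 and 1.83 for Phgdh. Slc1a2 and Slc38a3 had too few UMIs for a pattern to be read.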

How the data were processed

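Messenger RNA was measured in single cells from 1 control and 1 DPN pool of rat DRGs. The authors deposited raw UMI counts of each gene in each barcode, made with Cell Ranger 3.1.0 and STAR and not normalized. For STAR no version, and for the genome no build, was given in the sources read. The 2 libraries are separate pools and not replicates. Counts of identifiers that share a symbol (147 symbols) were added. The 10 genes, the limits that define the populations and the 7 related lists were chosen with earlier results of these data known.

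UMIs were summed per population and library with Python 3.11.15, numpy 2.4.6, pandas 2.3.3 and scipy 1.17.1. Intervals (exact Poisson, conditional binomial and Clopper-Pearson, 95%) cover counting error only, and no test was made. Depth ranged from 115409375 to 121101966 UMIs per library. Named genes are the 10, up to 3 called genes per related list with the largest absolute log2 ratio in satellite and other glia, and the 3 nearest genes in pattern, of which a few are not reported here. Likely doublets were kept, and 970 control and 1387 DPN barcodes with the highest Scrublet scores (scanpy 1.11.5) were removed in an alternative. The procedure was tested on simulated data. Alternatives in scaling, thinning, filters, limits and thresholds were run, 3 of them added once the data were seen. Promoter bases came from a set of RefSeq starts that held no entry for Slc38a3, although RefSeq places the gene itself on chromosome 8.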

Additional observations from a re-analysis of the deposited data

How the results depend on the processing

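No paired analysis was possible because the study holds 1 pool of each condition. The ratio of Slc1a3 in satellite glia stayed above 1 in all 14 alternatives (1.30 to 1.56) and past 1.5 in 10 of them. The exceptions were scaling to the median gene (1.35), thinning to 1000 UMIs a cell (1.47), under 10% Mt- (1.30) and doubled population limits (1.45). In other glia it was above 1 in all 15 (1.16 to 1.81) and past 1.5 in 10, the exceptions being scaling to the median gene (1.37), the mean over cells (1.46), under 10% Mt- (1.16), AY172581 genes counted as mitochondrial (1.47) and other glia with under 2 of Fabp7 and Tyrp1 per 10000 (1.497, just under the limit). In myelinating cells it was called in 8 of 14, and thinning to 1000 UMIs gave a value below 1 with an interval that held 1 (0.661, 0.264 to 1.64). Slc3a2 in myelinating cells was called lower in 13 of 14 (0.540 to 0.737) and Phgdh in 12 of 14 (0.522 to 0.665). The causes of these differences were not tested, except that thinning and the filters on cells left fewer UMIs.

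The numbers of the 10 genes called were 1 in satellite glia, 3 in myelinating cells, 1 in other glia and 0 in endothelium. In satellite glia 0 were called after thinning, under 10% Mt-, with doubled limits and at 2-fold. In myelinating cells 1 was called after thinning, under 10% Mt- and with at least 500 UMIs, and 0 at 2-fold. In other glia 2 were called under scaling to the median gene, with doubled limits, with no minimum of UMIs and in cells of at least 10000 UMIs. Doubled limits do not make other glia a stricter population. They let in cells that had met the satellite or myelinating limit, and other glia grew from 2856 to 3579 control cells and from 3874 to 4219 DPN cells. There were 0 in other glia with the mean over cells, AY172581 genes as mitochondrial, 2-fold and under 2 of Fabp7 and Tyrp1. In endothelium 2 were called with the mean over cells, 1 after thinning and 1 with no minimum. Under 10% Mt-, which left 216 control and 127 DPN satellite glia, 1 gene in place of 3 was higher in satellite glia than in myelinating cells, and 1 in place of 3 than in endothelium.

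Over all genes, higher calls numbered 2759 in satellite glia, 852 in myelinating cells, 2362 in other glia and 1719 in endothelium, and lower calls 245, 258, 246 and 421. Scaling to the median gene gave 731 lower in satellite glia and 653 in other glia. After thinning, 934, 127, 1020 and 449 were higher in that order of populations, and 83 were lower in myelinating cells, 156 in other glia and 144 in endothelium. Under 10% Mt- gave 545, 120 and 996 higher in the glial populations and 112 lower in myelinating cells. With no minimum of UMIs myelinating cells had 1966 higher and 417 lower. With at least 500 UMIs, 1464, 107, 1066 and 758 were higher, and 87 in myelinating cells, 121 in other glia and 160 in endothelium lower. At 2-fold, 1241, 258, 963 and 670 were higher and 44, 18, 40 and 66 lower. Other glia with under 2 of Fabp7 and Tyrp1 gave 1536 higher. Cells of at least 10000 UMIs gave 318 higher in myelinating cells and 1555 in other glia.

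Related genes called numbered 25 in satellite glia, 6 in myelinating cells, 20 in other glia and 16 in endothelium. Thinning gave 10, 2, 8 and 4. Under 10% Mt- gave 5 in satellite glia, 10 in other glia and 7 in endothelium. With no minimum there were 39, 17 and 31 in the glial populations. With at least 500 UMIs there were 14, 3, 7 and 4, and at 2-fold 6, 1, 5 and 3. The alternatives on other glia with under 2 of Fabp7 and Tyrp1, on cells that met another limit and on cells of at least 10000 UMIs were chosen after seeing the data. Scaling was not varied for comparisons between populations, where the totals of each population were used. The depth limits Slc1a2, Slc38a1 outside myelinating cells and neurons, and Slc38a3, whose ratios were not read.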
